A study of Mus musculus with 20 samples.

Results

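The difference between the genotype effects of muscle and of brain was measured for 10107 of the 25697 probes on an Illumina mouse bead array, which stand for 7344 of 16593 named genes. A genotype effect is the mean log2 level in mutant mice minus that in wild-type mice of 1 tissue, and the difference is the effect in muscle minus the effect in brain. A probe was included when its signal was above background, with a detection p under 0.05, on at least 4 of 8 muscle arrays and at least 6 of 12 brain arrays. The average of both effects was tested beside the difference, because it shows where the tissues moved together.

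The mutant mice were labelled as heterozygous for a transgene of human mutant TDP-43, and the controls as wild type. All 20 mice were 17 weeks old, had the C57BL/6J background and gave 1 array each, with 4 mice of each genotype for muscle and 6 of each for brain, so the tissues share no mouse and no controls. The promoter of the transgene, its mutation, the mouse line and the muscle or brain region taken are not given in the sources used here. Whether any mouse probe also binds the human transgene RNA was not tested.

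TDP-43, encoded by Tardbp, binds RNA in the nucleus and takes part in splicing, RNA transport and RNA stability. It limits its own amount by acting on its own transcript, and both too much and too little of it harm cells. Its aggregates mark affected neurons in most amyotrophic lateral sclerosis and in a large group of frontotemporal dementias, and it is also needed in muscle fibres.

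The labelled tissues carried their defining markers. The sarcomere and creatine kinase genes Acta1, Ckm, Myh4 and Tnnt3 had mean log2 levels of 13.44 to 14.48 in both muscle groups, and the neuronal Syt1 and Stmn2 and the myelin gene Mbp had levels of 10.55 to 13.4 in both brain groups; the probe for the neuronal Snap25 was above background on 0 arrays. Muscle arrays had 11469 to 12446 detected probes each, and brain arrays 11736 to 12966. On the first principal component of a tissue, replicate 2 of wild-type muscle, replicates 2 and 4 of wild-type brain and replicate 2 of mutant brain stood apart from the other arrays. The study's design text calls the mice male, yet the Y-linked gene Eif2s3y was detected on all 8 muscle arrays and on 6 of 12 brain arrays, 3 of each genotype (wild type 1, 2 and 4, and mutant 2, 3 and 5). Its log2 level on those 6 brain arrays was 6.33 to 7.39, against 4.24 to 4.31 on the other 6. At least 1 probe of the X-linked gene Xist was detected on those other 6, and also on wild type 4 and mutant 2. Results are therefore given also for the 14 arrays with Eif2s3y detected. Brain wild types 2 and 4 and mutant 2 are among both these arrays and those standing apart. In this subset, sex and those arrays cannot be told apart. The mean log2 level of 3 pituitary markers ran from 4.35 to 7.81 in wild-type and from 6.198 to 7.66 in mutant brains, and that of 3 cerebellar markers from 5.87 to 9.06 and from 8.13 to 8.88; their part in the brain effects below was tested only as a covariate.

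Few probes responded to genotype differently in muscle and brain. By limma's interaction test with Benjamini-Hochberg adjustment, 5 of 10107 probes (0.0495%) passed a threshold of 0.05. The effect was more negative in muscle for 4 of them (0.0396%), those of the Golgi GTPase Rab6b and of the digestive enzymes Cela1, Ctrl and Ctrb1. It was more positive in muscle for 1 (0.00989%), that of the myosin light chain Myl12b. At an unadjusted p under 0.05 there were 437 probes (4.32%), of which 306 (3.03%) were more positive and 131 (1.3%) more negative in muscle. For the average effect, 8 probes passed (0.0792%), 2 higher (0.0198%) and 6 lower (0.0594%) in mutants, and 511 had an unadjusted p under 0.05 (5.06%). Of those 8 probes, 4 had the same direction and an unadjusted limma p under 0.05 in both tissues. They were the 2 of Tardbp, that of the complement protease Masp2 and the unnamed ILMN_2958159. Rab6b, Cela1, Ctrl and Rnase1 entered the average through muscle, with brain effects of -0.10, -0.05, 0.07 and -0.08.

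Across all 10107 probes the measured effects in the 2 tissues were nearly unrelated. Their correlation was r = 0.0535 (Spearman's rho = 0.0327), a description across probes, which are not independent replicates, and it was 0.119 without the 4 arrays standing apart and -0.000847 without muscle wild type 2. The sign was the same in both tissues for 5124 probes, 50.7%. Among the 292 probes with an unadjusted p under 0.05 in muscle (2.89%), 149 had the same sign in brain (51%). Among the 831 such probes in brain (8.22%), 432 had the same sign in muscle (52%). A p under 0.05 in both tissues was found for 30 probes, 10.3% of the muscle set and 3.61% of the brain set, and 19 of them had the same sign. The SD of the effects across probes was 0.162 in muscle and 0.174 in brain, against median SEs of 0.157 and 0.128. Error of that size lowers the correlation and the agreement of signs, so these values do not show that the true effects are unrelated.

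How much difference could have gone unseen is shown by the intervals. The 95% interval of the difference had a median half-width of 0.422 on the log2 scale. It lay within 1 log2 unit either way for 9253 probes (91.6%) and within 0.5 log2 units for 3305 probes (32.7%). A difference over 1 log2 unit either way was measured at 17 probes, 4 of which passed. The largest, at Tmem87a, was 2.09 and did not pass; it was picked out after its value was seen. The genotype groups did not overlap at 202 probes in muscle (2%), at 62 in brain (0.613%) and at 3 in both tissues (0.0297%). These 3 are a Tardbp probe, lower in both tissues, D030056L22Rik, higher in both, and Myl12b, which went in opposite directions.

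**Figure D1:**
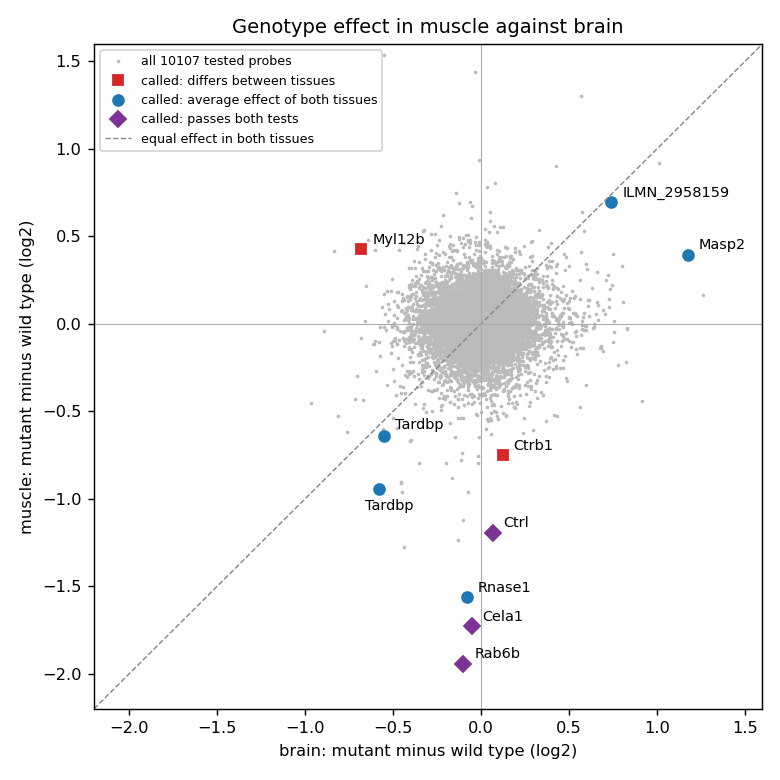
Genotype effect in muscle (vertical axis, log2) against that in brain (horizontal axis, log2) for 10107 probes, with the called probes marked by the test they passed and a dashed line where the effects are equal. Rab6b at -1.94 and Cela1 at -1.73 lie low on the vertical axis with brain effects near 0, Tardbp and ILMN_2958159 lie near the dashed line, and Myl12b lies alone among called probes at upper left.

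Rab6b had the strongest evidence of a difference between tissues. It encodes a small GTPase that directs transport between Golgi, endoplasmic reticulum and cell periphery, and it is the member of the RAB6 group known for expression in neurons. In wild-type muscle its log2 levels were 6.48, 6.10, 6.84 and 6.99, and in mutant muscle 4.86, 4.59, 4.63 and 4.56. Every mutant muscle lay below every wild-type muscle, and only 2 of the 4 mutant muscles were above background. In brain, where Rab6b was far brighter, wild-type levels ran from 11.26 through a median of 11.49 to 11.52, and mutant levels from 11.17 through 11.32 to 11.56. The brain groups overlapped.

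Mutant muscle had a mean Rab6b level of 4.66 ± 0.135 (SD, n = 4), against 6.60 ± 0.398 (SD, n = 4) for wild-type muscle, which is 26.0% of wild type. With 2 of the 4 mutant muscles at background, the decrease may be larger than this value. Mutant brain, at 11.32 ± 0.133 (SD, n = 6), had 93.3% of the level of wild-type brain, at 11.42 ± 0.126 (SD, n = 6). The difference between tissues was -1.84 on the log2 scale (SE 0.19, limma adjusted p = 4.4e-05). The exact two-sided permutation p was 0.0286 in muscle, the smallest that 4 against 4 mice allow, and 0.21 in brain, with 0.0484 and 0.272 after adjustment over 22 probe and tissue tests. These tests cover Tardbp and probes already called from the same arrays, and their adjustment leaves out the other probes screened. They are therefore no independent evidence. In muscle the genotype groups did not overlap at 202 probes (2%). The difference was -1.93 with only the arrays on which Eif2s3y was detected (adjusted p = 0.0287) and -0.65 without background correction, where it no longer passed (adjusted p = 0.0805). Fewer cells of a type and less RNA per cell cannot be told apart in these whole-tissue samples.

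Small GTPases of the Rab family, which sort vesicles between membranes, had no common direction as a list. Of 32 Rab and related genes tested, 16 had a more positive and 16 a more negative effect in muscle, and 1, Rab6b itself, passed. The median of the difference was 0.0326, against 0.0119 over all 7344 genes. Rab27a, which docks secretory vesicles and lysosome-related organelles, had effects of -0.32 in muscle and 0.28 in brain (difference -0.60, SE 0.20, limma adjusted p = 0.899). Rab3d, of regulated secretion, had effects of -0.23 and 0.17, and Rab4b, of endosomal recycling, 0.11 and -0.13; neither difference passed.

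The 3 other genes with a more negative effect in muscle encode digestive enzymes made by the acinar cells of the pancreas, where they are stored as inactive precursors and secreted into the gut. Cela1 is an elastase, Ctrl a chymotrypsin-like protease and Ctrb1 a chymotrypsinogen. Rnase1, the pancreatic ribonuclease, did not pass the interaction test. The acinar lists below were drawn up with the muscle result known, so their direction in muscle is no independent evidence.

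In acinar cells such genes are known to be switched on by the factor complex PTF1, which binds an E-box, here searched as CACCTG, and a nearby motif, here TTTCCC. Because these 4 genes moved together in muscle, the 250 bases before their start sites are shown from RefSeq on build GRCm38.p6, 5′ to 3′ along the gene's strand, with matches to either motif, on either strand, in capitals. All 4 genes lie on the minus strand, Cela1 at chr15:100687921-100688170, Ctrl at chr8:105933863-105934112, Ctrb1 at chr8:111691011-111691260 and Rnase1 at chr14:51146768-51147017.
Cela1: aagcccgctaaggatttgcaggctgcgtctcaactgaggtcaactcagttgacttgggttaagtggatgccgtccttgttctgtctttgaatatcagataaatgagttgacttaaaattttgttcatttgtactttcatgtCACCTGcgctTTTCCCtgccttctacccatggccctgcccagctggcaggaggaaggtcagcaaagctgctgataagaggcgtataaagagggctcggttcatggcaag
Ctrl: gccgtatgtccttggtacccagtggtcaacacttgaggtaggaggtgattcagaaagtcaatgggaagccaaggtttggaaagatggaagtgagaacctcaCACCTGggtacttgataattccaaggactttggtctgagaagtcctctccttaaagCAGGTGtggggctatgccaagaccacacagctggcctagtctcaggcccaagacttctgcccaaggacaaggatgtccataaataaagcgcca
Ctrb1: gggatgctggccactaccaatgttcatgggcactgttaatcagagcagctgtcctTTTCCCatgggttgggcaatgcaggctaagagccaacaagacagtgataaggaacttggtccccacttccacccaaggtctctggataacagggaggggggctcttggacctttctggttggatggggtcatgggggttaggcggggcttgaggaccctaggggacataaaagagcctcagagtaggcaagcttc
Rnase1: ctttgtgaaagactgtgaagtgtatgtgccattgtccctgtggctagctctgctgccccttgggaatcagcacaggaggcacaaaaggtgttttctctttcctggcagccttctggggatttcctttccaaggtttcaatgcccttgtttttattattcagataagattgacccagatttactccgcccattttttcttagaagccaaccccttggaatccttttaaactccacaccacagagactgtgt
The Cela1 window held both motifs close together on its own strand, CACCTG starting 109 and TTTCCC starting 99 bases before the start site. Ctrl held 2 matches to CACCTG, 1 on each strand, and Ctrb1 held 1 match to TTTCCC. The Rnase1 window held 0 matches. Among 32851 such windows of mouse genes, 17.2% held CACCTG, 21.9% held TTTCCC and 3.61% held both, so these matches describe the windows and mark no site. The matched motifs do not overlap each other. The probe for Ptf1a, a subunit of PTF1, was above background on 0 arrays, and whether PTF1 acts in these samples was not tested.

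Cela1 had log2 levels of 6.18, 6.53, 6.29 and 6.84 in wild-type muscle and 4.65, 4.63, 5.02 and 4.63 in mutant muscle. In brain it ran from 4.76 through 5.17 to 5.51 in wild type and from 4.84 through 5.09 to 5.32 in mutants. The muscle groups were apart and the brain groups overlapped. The muscle effect was -1.73 and the brain effect -0.05, with a difference of -1.67 (SE 0.21, limma adjusted p = 0.000638). In muscle the mutant mean was 30.2% of wild type, and in brain 96.4%. The call was lost with median scaling (difference -1.57, adjusted p = 0.206) and with only the arrays that detected Eif2s3y (-1.43, adjusted p = 0.159).

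Ctrl had levels of 6.21, 5.95, 5.58 and 6.59 in wild-type muscle and 4.90, 4.88, 5.06 and 4.72 in mutant muscle. Its brain levels ran from 4.83 through 5.04 to 5.11 in wild type and from 4.95 through 5.05 to 5.25 in mutants. The groups were apart in muscle and overlapped in brain. The effects of -1.19 and 0.07 differed by -1.26 (SE 0.19, limma adjusted p = 0.00674). This difference no longer passed with only the Eif2s3y-positive arrays (-1.27, adjusted p = 0.355), with regional markers as covariates (-1.15, adjusted p = 0.288) or with median scaling (-1.20, adjusted p = 0.461).

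Ctrb1 was dim throughout, detected in muscle of 4 wild types and 1 mutant and in brain of 2 wild types and 4 mutants. Its muscle levels were 5.30, 5.29, 4.90 and 5.60 in wild type and 4.57, 4.56, 4.42 and 4.53 in mutants. Brain levels ran from 4.48 to 4.67 in wild type and from 4.48 to 4.86 in mutants. The difference was -0.87 (SE 0.16, limma adjusted p = 0.0321), from a muscle effect of -0.75 and a brain effect of 0.12. It was called in 10 of 34 alternatives, and in 5 of 20 that left out a single array, where it ranged from -1.02 to -0.78. Without muscle wild type 2 it was -0.79 (adjusted p = 0.155).

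Rnase1 had levels of 5.76, 6.59, 5.60 and 6.44 in wild-type muscle and 4.86, 4.39, 4.41 and 4.49 in mutant muscle. In brain it ran from 4.37 through 4.96 to 5.46 in wild type and from 4.47 through 4.91 to 5.23 in mutants. The brain spread was wide and the groups overlapped there. The difference was -1.48 (SE 0.31, limma adjusted p = 0.114), while the average effect of -0.82 passed (SE 0.15, adjusted p = 0.032) and was -0.69 without muscle wild type 2 (adjusted p = 0.198).

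The interaction test reaches few acinar genes, because most were not measurable in brain. Of 29 acinar genes on the array, 20 were above background on at least 4 muscle arrays, 4 on at least 6 brain arrays, and 22 on 0 brain arrays. The 4 tested are Cela1, Ctrl, Ctrb1 and Rnase1, all more negative in muscle. Since 4 detected wild-type muscles suffice to pass the filter, their number says nothing about the list. The mean level of 5 acinar markers (Cela2a, Cpa1, Amy2a5, Clps and Ctrb1) was 6.52 to 7.27 in wild-type muscles, 5.27 to 5.36 in mutant muscles, 4.35 to 4.39 in wild-type brains and 4.32 to 4.58 in mutant brains. The 16 acinar genes measured only in muscle were above background in all 4 wild-type muscles, which alone meets the filter, so no count of their direction is given.

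With no detection filter, 25 of 25697 probes passed the interaction test, 22 more negative and 3 more positive in muscle. Of the 22, 19 were probes of 17 acinar genes, out of 32 acinar probes on the array, which were listed with the muscle result known. Among them were the elastase Cela2a with a muscle effect of -2.29 and the carboxypeptidase Cpa1 with -1.39, and brain effects of -0.07 and 0.02 at background. Where brain lay at background, the difference is the muscle effect alone. The acinar gene Cuzd1, detected on all muscle arrays, went the other way, with mean levels of 5.86 in wild-type and 6.07 in mutant muscle. The 3 probes that passed with a more positive effect were those of Myl12b, the retinol-binding protein Rbp7 (1.32 in muscle, 0.01 in brain, detected on 3 of 12 brain arrays) and the mitotic checkpoint gene Mad2l2. The 5 acinar markers were lower in mutant than in wild-type muscles and near background in brain; their part in the muscle effects of Rab6b and other genes was not tested, and without acinar probes Rab6b was the 1 probe that passed.

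**Figure D2:**
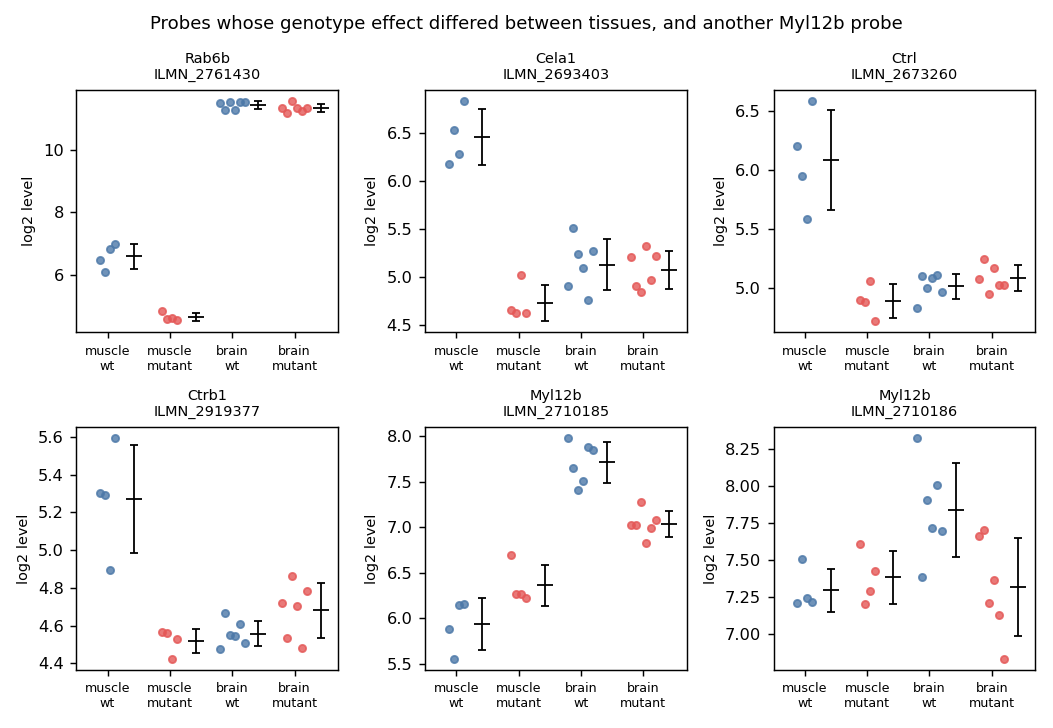
Log2 level on each array (points) with group mean and SD (black) for the 5 probes whose genotype effect differed between tissues, and for another Myl12b probe. Rab6b, Cela1, Ctrl and Ctrb1 are lower in all mutant muscles than in all wild-type muscles and overlap in brain, and Myl12b ILMN_2710185 is higher in mutant muscle and lower in mutant brain.

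At 1 of its 3 tested probes, Myl12b was higher in mutant muscle and lower in mutant brain. The gene encodes a regulatory light chain of non-muscle myosin, whose phosphorylation sets the contraction of the actin cortex. The called probe, ILMN_2710185, had log2 levels of 5.89, 5.55, 6.15 and 6.15 in wild-type muscle and 6.70, 6.26, 6.26 and 6.22 in mutant muscle. In brain it ran from 7.41 through 7.75 to 7.98 in wild type and from 6.82 through 7.03 to 7.28 in mutants. The groups did not overlap in either tissue, though in muscle the highest wild type and the lowest mutant lay close together.

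The Myl12b effects were 0.43 in muscle, 134% of wild type, and -0.68 in brain, 62.4% of wild type. They differed by 1.11 (SE 0.20, limma adjusted p = 0.0321). The exact two-sided permutation p was 0.0286 in muscle and 0.00216 in brain, each the smallest its group sizes allow. After adjustment over the same 22 tests of chosen probes it was 0.0484 and 0.0119. The call held in 12 of 36 alternatives, and in 5 of 20 that left out a single array, where the difference ranged from 0.97 to 1.18. It was 0.97 without muscle wild type 2 (adjusted p = 0.117), 1.06 with only the Eif2s3y-positive arrays (adjusted p = 0.465) and 0.97 with regional markers as covariates (adjusted p = 0.744), and no alternative turned its sign.

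Other probes of Myl12b did not share the muscle increase. ILMN_2710186 had effects of 0.09 in muscle and -0.52 in brain (difference 0.61, SE 0.24), and ILMN_2953531, the brightest, of 0.02 and -0.11 (difference 0.13, SE 0.16); the limma adjusted p was 0.995 for both. Among 16 genes of non-muscle myosin and actin dynamics, 6 had a more positive effect in muscle, with a median difference of -0.0264. Of the 16, 0 passed limma's test and 1 had an unadjusted p under 0.05. Myl12b is in this list by its brightest probe, ILMN_2953531, so the called probe does not enter these counts. The actin-binding profilin Pfn2 had effects of 0.16 in muscle and -0.26 in brain (difference 0.42, SE 0.15, adjusted p = 0.899), and cytoplasmic actin Actb -0.11 and 0.35. Myosin light chain kinase Mylk had -0.06 and 0.17, and profilin Pfn1 -0.15 and 0.07.

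The genes next by p with a more positive effect in muscle did not pass, and all 10 named here were higher in mutant muscle and lower in mutant brain. Their choice by a positive difference favours that pattern, so it is no evidence of its own. Mad2l2, a subunit of the translesion polymerase and of shieldin, had levels of 5.44, 5.44, 5.52 and 5.46 in wild-type and 5.61, 5.79, 6.22 and 5.97 in mutant muscle. Its brain levels ran from 4.68 through 4.91 to 5.15 in wild type and from 4.40 through 4.57 to 4.70 in mutants, where 3 of 6 were above background. The muscle groups were apart, and the brain groups overlapped slightly. Its effects of 0.43 and -0.37 differed by 0.80 (SE 0.16, limma adjusted p = 0.114).

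Ndufs4, a subunit of respiratory complex I, had effects of 0.36 and -0.38 at ILMN_2900025 (difference 0.74, SE 0.17, adjusted p = 0.327). Its 3 other tested probes had muscle effects of -0.10 to -0.0005 and brain effects of -0.35 to -0.11, so they share the brain direction only. The DNA end-binding protein Xrcc6 had effects of 0.35 and -0.29, and its mutant muscles, at 7.45, 7.41, 7.41 and 7.43, lay above all wild-type muscles, at 7.02, 7.15, 7.02 and 7.10. Clpx, which unfolds proteins for the mitochondrial ClpP protease, had 0.09 and -0.56, and Micu2, a gatekeeper of the mitochondrial calcium uniporter, 0.24 and -0.26. The kinases Csnk1g3 and Cdkl2 had 0.26 and -0.28, and 0.22 and -0.23. Fam210b, a mitochondrial protein, had 0.42 and -0.14, the sorting nexin Snx12 0.15 and -0.31, and Tmem218, a ciliary membrane protein, 0.20 and -0.41. The limma adjusted p of these 9 genes after Mad2l2 was 0.327 to 0.851.

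Among genes with a more negative effect in muscle, Tnfrsf22, a decoy receptor for the death ligand TRAIL, was first by p without passing. Its levels were 6.69, 7.19, 6.94 and 6.46 in wild-type and 6.39, 6.25, 6.18 and 6.35 in mutant muscle, and ran from 4.48 through 4.70 to 4.92 in wild-type and from 4.79 through 5.18 to 5.48 in mutant brain. The muscle groups were apart and the brain groups overlapped. Its effects of -0.53 and 0.43 differed by -0.96 (SE 0.19, limma adjusted p = 0.107). Pxmp2, a pore of the peroxisomal membrane, had effects of -0.73 and 0.10, and Eci3, an enoyl-CoA isomerase, -0.29 and 0.30. The deubiquitinase Mindy2 had -0.25 and 0.38, the transcription factor Gtf3a of 5S ribosomal RNA genes -0.13 and 0.27, and Acap3, an Arf GTPase-activating protein, -0.14 and 0.36. The guidance cue Slit3 had -0.40 and 0.15, and the transmembrane protein Cmtm8 -0.51 and 0.13. Adjusted p-values of these 7 genes were 0.79 to 0.899.

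Tardbp itself was lower in mutants of both tissues. The brightest probe, ILMN_3093089, had levels of 7.27, 7.22, 7.15 and 7.14 in wild-type and 6.28, 6.42, 6.197 and 6.11 in mutant muscle. In brain it ran from 8.53 through 8.70 to 9.08 in wild type and from 7.99 through 8.15 to 8.31 in mutants. Each mutant array lay below each wild-type array of its tissue. The average effect was -0.76 (SE 0.073, limma adjusted p = 6.04e-06), made of -0.94 in muscle, 52.1% of wild type, and -0.58 in brain, 67.0% of wild type. The tissues differed by -0.36 (SE 0.15, 95% interval -0.67 to -0.06, limma adjusted p = 0.995). With median scaling the average effect no longer passed (-0.925, limma adjusted p = 0.16).

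Another Tardbp probe gave the same direction. ILMN_1244811 had levels of 6.06, 6.22, 6.39 and 6.10 in wild-type and 5.50, 5.69, 5.73 and 5.28 in mutant muscle, and ran from 6.39 through 6.56 to 7.05 in wild-type and from 5.78 through 6.04 to 6.45 in mutant brain. The groups were apart in muscle and overlapped slightly in brain. Its average effect was -0.60 (SE 0.11, limma adjusted p = 0.0213), with 64.1% of wild type in muscle and 68.3% in brain. The call was lost without muscle wild type 2 (-0.58, adjusted p = 0.0645) and with only the Eif2s3y-positive arrays (-0.702, adjusted p = 0.194). It was also lost with median scaling (-0.727, adjusted p = 0.525), without background correction (-0.264, adjusted p = 0.089) and with regional markers as covariates (-0.558, adjusted p = 0.052). The dim probe ILMN_3029953 had effects of -0.04 and 0.12 and an average of 0.04 (SE 0.10), and ILMN_1228976 was too dim to test.

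Masp2 was higher in mutants by the average of both tissues. It encodes a serine protease that starts the lectin pathway of complement, and in RefSeq on GRCm38.p6 its annotated range on chromosome 4 overlaps that of Tardbp on the opposite strand. Probe ILMN_1216142 had levels of 4.33, 4.33, 4.26 and 4.65 in wild-type and 4.57, 4.61, 4.98 and 4.99 in mutant muscle, where 1 and 4 arrays were above background. In brain it ran from 4.61 through 4.87 to 5.03 in wild type and from 5.70 through 6.06 to 6.35 in mutants. The brain groups were apart and the muscle groups overlapped by 1 wild type.

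The average effect of Masp2 was 0.79 (SE 0.092, limma adjusted p = 0.000105), from 0.40 in muscle and 1.18 in brain. The brain mutants were at 226% of wild type (exact two-sided permutation p = 0.00216, adjusted 0.0119 over the same 22 tests of chosen probes), and the muscle mutants at 132% (0.0857, adjusted 0.126). The tissues differed by -0.78 (SE 0.18), which did not pass (limma adjusted p = 0.327), and wild-type muscle lay at background on 3 of 4 arrays, which limits the muscle effect that could be measured. With the authors' processed values it was -1.60 (adjusted p = 1.89e-05), but there all 8 muscle arrays lay below the floor of 16 set on those values, so the muscle effect was 0 and the value is the brain effect alone. The average was called in 35 of 35 alternatives. Its other probes, ILMN_3027989 and ILMN_3101073, were above background on 0 muscle arrays and on 0 and 3 brain arrays.

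The unnamed probe ILMN_2958159 rose to a similar extent in both tissues. Its levels were 8.002, 8.93, 7.97 and 8.02 in wild-type and 9.43, 8.68, 8.66 and 8.94 in mutant muscle, and ran from 9.92 through 10.3 to 10.54 in wild-type and from 10.92 through 11 to 11.22 in mutant brain. Muscle wild type 2 lay among the mutants, and the brain groups were apart. The effects of 0.70 and 0.74 gave an average of 0.72 (SE 0.13, limma adjusted p = 0.0209), and 0.84 without muscle wild type 2 (adjusted p = 0.00031). With only the Eif2s3y-positive arrays the average was 0.79 (adjusted p = 0.364).

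**Figure D3:**
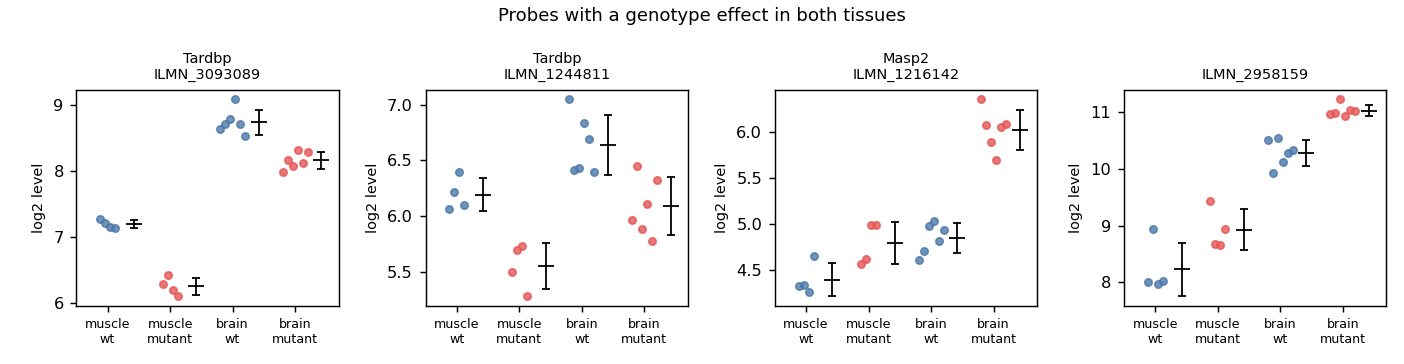
Log2 level on each array (points) with group mean and SD (black) for 4 probes with an average effect. They are those with the same direction and an unadjusted limma p under 0.05 in both tissues. Both Tardbp probes are lower in mutants, ILMN_2958159 is higher in mutants, with muscle wild type 2 among them, and Masp2 is higher in all mutant brains and overlaps in muscle.

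Neighbours of Tardbp on chromosome 4 were examined as a list of their own. Of 17 such genes tested, Tardbp and Masp2 included, 9 had a more positive and 8 a more negative effect in muscle; 0 passed the interaction test, and Tardbp and Masp2 passed the average test. An unadjusted interaction p under 0.05 was found for 5 of the 17, against 4.32% of all probes. Mad2l2 belongs to this set. Pik3cd, a catalytic subunit of phosphoinositide 3-kinase, had effects of -0.47 and 0.06 (difference -0.53, SE 0.18, limma adjusted p = 0.899). The median effect of the 17 was 0.0206 in muscle and -0.00643 in brain.

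Genes next by p for a shared effect did not pass. Padi2, which converts arginine to citrulline in proteins, had effects of 0.40 in muscle and 0.75 in brain (average 0.57, SE 0.13, limma adjusted p = 0.376). D030056L22Rik had levels of 7.88, 7.86, 7.78 and 7.72 in wild-type and 7.98, 8.01, 7.95 and 8.43 in mutant muscle, and ran from 9.20 to 9.42 in wild-type and from 9.48 to 9.69 in mutant brain, with no overlap in either tissue and an average of 0.25 (adjusted p = 0.681). The coactivator Ppargc1b, of mitochondrial genes, had 0.22 and 0.74, the actin nucleator Spire1 0.21 and 0.30, Trcg1 0.36 and 0.29, and Tnip1, which restrains NF-kappaB signalling, 0.45 and 0.04.

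Lower in both tissues without passing were the vesicle SNARE protein Sec22a (-0.36 and -0.36), the ceramide synthase Cers2 (-0.28 and -0.41), the ubiquitin ligase adaptor Klhl21 (-0.36 and -0.44), the autophagy enzyme Atg3 (-0.10 and -0.60) and Gm14325 (-0.12 and -0.61). Their adjusted p-values for the average were 0.564 to 0.646. Atg3 and Gm14325 were low mainly in brain, while Sec22a and Klhl21 had nearly equal effects.

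Gene lists were compared between tissues by the median effect of their members and by counts, with no test, since they were chosen with earlier results of these data known. Where several probes of a gene were tested, the brightest stands for it. Over all 7344 genes, 52.2% had a more positive effect in muscle, and the median effects were 0.0148 in muscle and 0.00401 in brain. With median scaling in place of quantile normalization the median difference over all genes moved from 0.0119 to 0.203, so the list values below hold relative to all genes and not as absolute directions in brain. A median below is on the log2 scale of effects.

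Genes of mitochondrial energy supply had more positive effects in muscle than in brain, with medians slightly below 0 in brain and slightly above 0 in muscle. Complexes II to V of the respiratory chain had 30 of 35 genes more positive in muscle, with medians of 0.0398 in muscle and -0.0849 in brain. For complex I, 23 of 32 genes were more positive in muscle, with medians of 0.0151 and -0.0774. The citrate cycle, which feeds both, had 13 of 17, with 0.0233 and -0.153, and mitochondrial beta-oxidation, which breaks down fatty acids, 14 of 19, with 0.0734 and -0.116. In these 4 lists 0 genes passed limma's test, and 4, 3, 0 and 2 genes of complex I, complexes II to V, the citrate cycle and beta-oxidation had an unadjusted interaction p under 0.05, against 4.32% of all probes.

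The members of lowest interaction p are given as examples, and their tissue difference is what chose them. Sdhb, the iron-sulfur subunit of succinate dehydrogenase, had levels of 11.21, 11.25, 11.17 and 11.04 in wild-type and 11.43, 10.96, 11.19 and 11.31 in mutant muscle, and ran from 8.60 through 8.75 to 8.94 in wild-type and from 8.16 through 8.31 to 8.69 in mutant brain. The muscle groups were intermingled, and 1 brain mutant lay within the wild-type range. Its effects of 0.05 and -0.41 differed by 0.47 (SE 0.16, limma adjusted p = 0.899). The cytochrome oxidase subunits Cox5a and Cox6c had 0.10 and -0.26, and 0.06 and -0.44, and the ATP synthase subunit Atp5a1 0.16 and -0.42.

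Of complex I, the subunits Ndufa6, Ndufb5, Ndufb10 and Ndufs3 had muscle effects of 0.01, 0.24, 0.61 and 0.01 and brain effects of -0.31, -0.36, -0.05 and -0.30. In the citrate cycle and its entry, the isocitrate dehydrogenases Idh3a, Idh2 and Idh3g had muscle effects of 0.24, 0.11 and -0.05 and brain effects of -0.06, -0.29 and 0.15, and the pyruvate dehydrogenase subunit Pdhb 0.02 and -0.35. For beta-oxidation, the trifunctional protein subunit Hadhb had 0.21 and -0.35, malonyl-CoA decarboxylase Mlycd 0.20 and -0.40, the isomerase Eci2 0.20 and -0.20, and the medium-chain dehydrogenase Acadm 0.24 and -0.02. Idh3g is the exception among these 12 genes, being more negative in muscle.

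The mean level of the 35 genes of complexes II to V was 11.45 to 11.56 in wild-type and 11.50 to 11.57 in mutant muscles, and 9.97 to 10.12 in wild-type and 9.86 to 9.96 in mutant brains, where the groups did not overlap. Without the 4 arrays standing apart the medians were 0.0356 in muscle and -0.0838 in brain, and with only the Eif2s3y-positive arrays the brain median was -0.0822. The order of the tissues was the same in 36 of 36 alternatives for each of these 4 lists, but these alternatives are not independent checks. Some, such as a spread for each tissue, left the medians over all genes unchanged. Another 20 left out a single array and shared nearly all their data. Median scaling moved the median difference over all genes to 0.203, which favours this order in any list. The pituitary and cerebellar marker levels given above vary among the same brains.

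**Figure D4:**
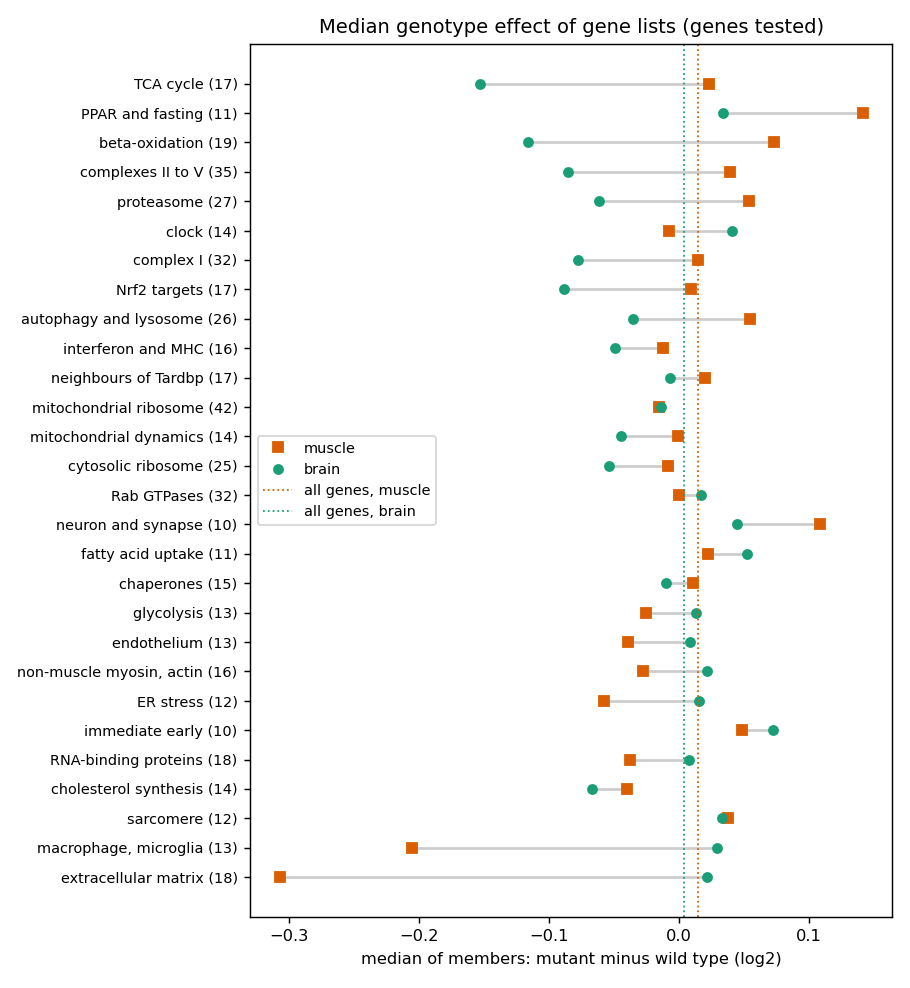
Median genotype effect (log2) of the tested genes of each list in muscle (squares) and brain (circles), for lists with at least 10 tested genes, whose number is in brackets; dotted lines mark the medians over all genes. The citrate cycle, beta-oxidation and complexes II to V have brain medians of -0.153, -0.116 and -0.0849 with muscle medians above 0, and the extracellular matrix has the lowest muscle median, -0.307.

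Protein breakdown and antioxidant genes had medians of the same order. The proteasome had 20 of 27 genes more positive in muscle (medians 0.0539 and -0.0611), autophagy and lysosome 17 of 26 (0.0547 and -0.0349) and Nrf2 target genes 11 of 17 (0.00959 and -0.0885). By limma's test 0 genes passed in each, and 3, 3 and 2 had an unadjusted p under 0.05, against the same 4.32%. Without the 4 arrays standing apart their median differences were 0.0159 (0.0891 with all arrays), 0.0765 and 0.179, against -0.00133 over all genes. With only the Eif2s3y-positive arrays they were 0.101, 0.0387 and 0.0886, against 0.0342 over all genes. There the brain median of autophagy and lysosome was 0.00283, so this list kept little of its difference. Psmd14, the deubiquitinase of the proteasome lid, had effects of 0.18 in muscle and -0.31 in brain (difference 0.49, SE 0.16, limma adjusted p = 0.899), and the core subunits Psmb7 and Psma3 had -0.07 and -0.38, and 0.05 and -0.17. The lid subunit Psmd8 went the other way, with -0.54 and 0.24. The autophagosome proteins Gabarapl2, Map1lc3b and Map1lc3a had muscle effects of 0.18, 0.17 and 0.31 and brain effects of -0.32, -0.55 and -0.19. Catalase, Cat, had 0.46 and -0.44, the lipid peroxidase Gpx4 0.02 and -0.31, mitochondrial superoxide dismutase Sod2 0.01 and -0.27, and Gclm, of glutathione synthesis, 0.22 and -0.10.

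Extracellular matrix and macrophage genes had more negative effects in muscle than in brain, and these medians were much smaller without muscle wild type 2. Of 18 matrix and fibroblast genes, 17 had a more negative effect in muscle, with medians of -0.307 in muscle and 0.0219 in brain; 0 passed limma's test and 1 had an unadjusted p under 0.05. Their mean level was 9.61 in muscle wild type 2 and 8.48 to 8.55 in the other wild-type muscles, against 8.26 to 8.57 in mutant muscles. Without that array the muscle median was -0.0385, the median difference was -0.0535 in place of -0.361, and 5 genes were more positive in muscle. Col1a2, a collagen chain, had effects of -0.63 and 0.06 (difference -0.68, SE 0.27, limma adjusted p = 0.995), the basement membrane collagen Col4a1 -0.17 and 0.18, the collagen-binding Sparc -0.50 and 0.08, and Timp1, an inhibitor of matrix proteases, -0.41 and 0.06.

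Of 13 macrophage and microglia genes, 11 had a more negative effect in muscle (medians -0.205 and 0.0294); 0 passed limma's test and 0 had an unadjusted p under 0.05. Their mean level was 7.04 in muscle wild type 2 and 5.98 to 6.19 in the other wild-type muscles. Without that array the medians were 0.0501 in muscle and 0.000622 for the difference. The Fc receptor chain Fcer1g had effects of 0.05 and 0.65, the complement genes C1qc and C1qb -0.35 and 0.14, and -0.36 and 0.08, and the microglial Tmem119 -0.23 and -0.01.

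**Figure D5:**
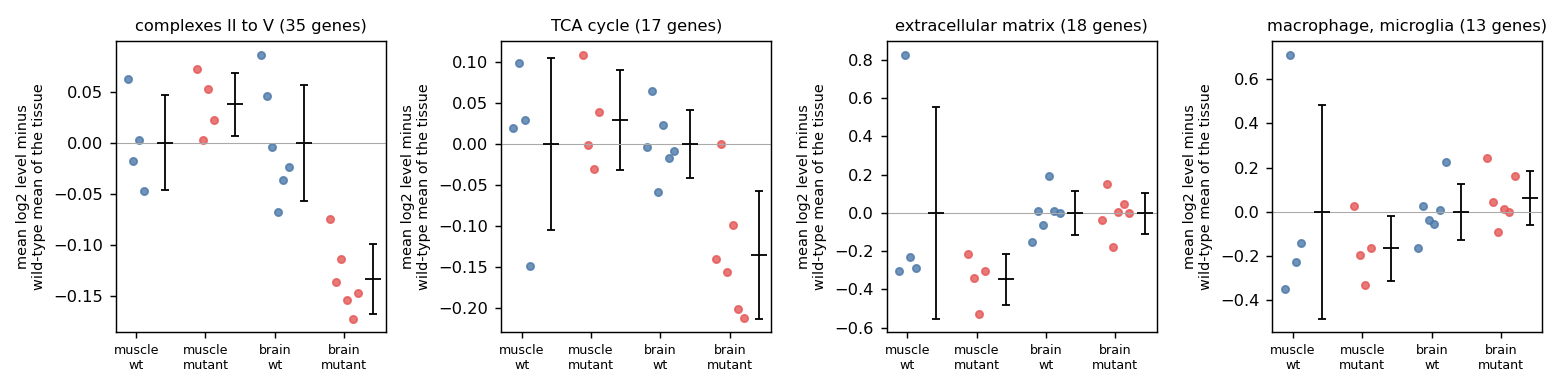
Mean log2 level of the genes of 4 lists on each array, after subtracting the wild-type mean of the tissue, with group mean and SD (black). Brain mutants lie below all wild-type brains for complexes II to V, and muscle wild type 2 lies above all other muscles for extracellular matrix and macrophage genes.

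The remaining lists with at least 10 tested genes had median differences between -0.0882 for the sarcomere and 0.211 for PPAR targets and fasting genes. Over the alternatives that of the sarcomere ranged from -0.144 to 0.164 and that of PPAR targets and fasting genes from -0.0884 to 0.275. They hold 12 and 11 tested genes, whose lowest limma adjusted p for the difference was 0.995. Cytosolic ribosomal proteins (16 of 25 more positive in muscle), mitochondrial ribosomal proteins (27 of 42), glycolysis (6 of 13), chaperones (8 of 15), ER stress (6 of 12) and cholesterol synthesis (6 of 14) included 0 genes that passed. So did a list of RNA-binding proteins and splicing factors (8 of 18), only some of them linked to amyotrophic lateral sclerosis or frontotemporal dementia. The same held for clock genes (9 of 14), immediate early genes (4 of 10), interferon and MHC genes (9 of 16) and fatty acid uptake (7 of 11). It also held for mitochondrial dynamics (8 of 14), endothelium (6 of 13) and neuron and synapse genes (5 of 10). An unadjusted p under 0.05 was found for 1 gene each of cholesterol synthesis, mitochondrial ribosomal proteins and chaperones, and for 2 each of ER stress and clock genes.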

How the data were processed

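Total RNA of muscle and brain was hybridised, 1 sample an array, to Illumina mouse bead arrays; per the submitters' processing notes GenomeStudio 2011.1 was used. The authors deposited non-normalized signal intensity and a detection p-value for each probe and array, and a table of processed intensity values on a linear scale whose method is not given in the sources used here. The deposited signals were background-corrected by normexp from the detection p-values with an offset of 16, quantile-normalized within each tissue and put on the log2 scale with limma 3.58.1 (R 4.3.3). Probes with a detection p under 0.05 on at least 4 muscle and 6 brain arrays were kept. limma fitted 4 group means with 1 spread per probe, and the contrasts were adjusted by Benjamini-Hochberg over all probes kept. Exact two-sided permutation tests within each tissue covered 22 probe and tissue pairs, of Tardbp and of the probes called by limma. Their adjustment was over these 22 only.

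Each array carries its own mouse number, and p-values measure the spread between these mice; the number of arrays limits the precision. Of 25697 probes, 23978 had 1 gene symbol, 0 had several and 1719 had none. Of 833 listed gene symbols, 86 were not on the array. Genes named are the Tardbp probes, all that passed either test, the 10 named genes next by interaction p and the 6 next by average p in each direction, other probes of those that passed, and up to 4 list members of lowest interaction p; further acinar genes and Rbp7 were named after their values were seen. The genes and lists were chosen with earlier results of these data known. Alternatives covered normalization, background, filter, weights, covariates, the authors' processed intensity values and each array left out. Only the limma fit and its interaction call were tested on simulated data, with log2 values drawn independently for each probe. The normalization, filter, permutation tests and list medians were not tested that way. Promoters came from RefSeq, GRCm38.p6.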

Additional observations from a re-analysis of the deposited data

Results flagged for a closer look

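By the interaction test, the genotype effect differed between tissues for Rab6b (muscle minus brain -1.84 on the log2 scale), Cela1 (-1.675), Ctrl (-1.26), Ctrb1 (-0.87) and Myl12b ILMN_2710185 (1.11).

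Single arrays lay far from the rest of their group at 67 of 972 groups tested with Dixon's 95% critical value, which chance passes in about 1 in 20 groups. Muscle wild type 2 was far from its group for ILMN_2958159 (8.93, nearest array 8.02), Myl12b ILMN_2710186 (7.51, nearest 7.24), Idh3a (11.16, nearest 11.67) and Sparc (11.48, nearest 10.2). Muscle wild type 4 was so for Snx12 (6.48, nearest 6.34). Muscle mutant 1 was so for Myl12b ILMN_2710185 (6.70, nearest 6.26) and Trcg1 (4.60, nearest 4.93). Muscle mutant 2 was so for Eci2 (7.70, nearest 8.19) and Rab27a (6.19, nearest 5.59), and muscle mutant 3 for Cela1 (5.02, nearest 4.65). Muscle mutant 4 was so for Pxmp2 (6.95, nearest 7.67), D030056L22Rik (8.43, nearest 8.01), Cox5a (13.73, nearest 13.35), Psmd8 (10.8, nearest 10.06) and Actb (10.98, nearest 11.67).

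In brain, wild type 1 lay apart for Mlycd (7.39, nearest 6.76) and Col4a1 (7.20, nearest 7.75), and wild type 2 for Idh3a (9.58, nearest 9.75). Mutant 3 lay apart for Gclm (6.41, nearest 6.61), mutant 5 for Ndufb5 (6.23, nearest 6.66) and Psmd8 (7.51, nearest 8.34), and mutant 6 for Col4a1 (7.98, nearest 7.88).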

How the results depend on the processing

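The number of probes passing the interaction test was 5 and became 1 with median scaling, 1 without background correction, 1 with only the arrays that detected Eif2s3y, 1 without acinar probes, 2 with a spread for each tissue, 2 with regional markers as covariates, 3 with detection required on all 20 arrays, 3 without the 4 arrays standing apart and 25 without a detection filter. The number stayed at 5 with all 20 arrays kept and Eif2s3y detection in brain as a covariate. The same 5 probes passed there, with limma adjusted p of 6.74e-05 for Rab6b to 0.0432 for Myl12b and Ctrb1. It was 5 with all arrays normalized together, 4 with an offset of 50, 4 with the authors' processed values and 6 with array weights. Leaving out 1 array gave 3 to 6. For the average effect the number was 8 and became 3 with median scaling, 5 without background correction, 4 with only the Eif2s3y-positive arrays, 5 without acinar probes, 5 with regional markers, 5 with detection on all arrays and 24 without a filter. It stayed at 8 with the Eif2s3y covariate, with all arrays normalized together, with array weights and with the authors' values, and was 6 with an offset of 50. Leaving out 1 array gave 4 to 8, with 4 without muscle mutant 4. Fewer probes or arrays enter several of these by construction; the cause of the other changes was not tested.

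Replicate numbers were not taken as pairing the samples, because not every pair correlated above 0.1: same-numbered samples' deviations correlated at -0.264 to 0.115 in muscle and at -0.0633 to 0.651 in brain, where 4 of 6 pairs were above 0.1. With the replicate block 2 probes passed the interaction test and 4 the average test. Rab6b and Cela1 passed both, and the differences of Myl12b (adjusted p = 0.191), Ctrl (0.161) and Ctrb1 (0.191) and the averages of Tardbp ILMN_1244811 (0.149), ILMN_2958159 (0.137), Ctrl (0.178) and Rnase1 (0.0827) did not pass.

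Of 1736 gene values under the alternatives, 1612 kept direction and side of the threshold, 107 lost a call, 8 gained one and 9 turned, all at the 2 Tardbp probes whose value was near 0. The difference at ILMN_1244811 turned to 0.0698 with median scaling, 0.0014 without background correction, 0.12 with the Eif2s3y-positive arrays and 0.0019 without muscle mutant 4, within a range of -0.173 to 0.0019 over single arrays left out. At ILMN_3029953 the difference turned to 0.10 with the authors' values and 0.0018 with the Eif2s3y-positive arrays, and the average to -0.016 with median scaling, -0.045 with the Eif2s3y-positive arrays and -0.027 without muscle mutant 3, within a range of -0.027 to 0.0803. BeadChip as a block was not run, since the chip of each array is not given in the sources used here. Probes of Ctrb1, Rnase1 and Masp2, and that of Rab6b in mutant muscle, lie near background, where fold changes are understated.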
